A study of Mus musculus with 3 samples.

Results

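Genes of the extracellular matrix and of cell adhesion were compared between mouse liver and Universal Mouse Reference RNA (UMRR), a purchased mixture of RNA from cultured mouse lines. They were all probes whose single gene symbol begins with the name of a matrix or adhesion family, such as the collagens, laminins, integrins, cadherins and claudins, or is one of a few further names, such as Lum or Ocln. This gave 138 probes of 107 genes, of 16273 probes on the array. A measured ratio on each of the 3 arrays was found for 81 of these probes, which gave 67 genes, of 5520 such genes in all. On every array the dye Cy5 marked cRNA made from purchased liver RNA, and Cy3 marked cRNA made from purchased UMRR, each after 1 round of amplification. The labels give no strain, age or sex for the liver and do not list the cell lines of the pool. Whether RNA was amplified once for all arrays or separately is not stated. The 3 arrays repeat 1 pair of RNA products with the dyes never exchanged, so the p-values reflect only how arrays varied, which may be technical variation, and dye bias is part of each ratio.

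The extracellular matrix is the network of collagens, glycoproteins and proteoglycans outside cells. Cells bind it through integrins and remodel it with metalloproteinases of the Mmp and Adam families, while cadherins, claudins, desmosomal proteins and connexins join cells to each other. Healthy liver has little basement membrane between its hepatocytes and the blood sinusoids. Its hepatocytes form an epithelium whose tight junctions seal the bile canaliculi, and stellate cells, endothelium and portal fibroblasts supply much of its matrix. Cultured cell lines commonly secrete laminins, collagens and matrix proteases.

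All values are log2 ratios of liver over UMRR as deposited, so a value of 1 is a 2-fold higher signal in liver and -1 a 2-fold lower one. The table states neither base nor direction. Base 2 was assumed, and with natural logs every value would be larger by a factor of 1.44. The direction was read from hepatocyte markers, of which 4 of 4 measured genes (Apoc3, Vtn, Rbp4 and Ambp) were above 0 on every array, with medians of 4.29, 4.70 and 4.74 on arrays 1, 2 and 3. An exact 0, listed for 32.2%, 23.5% and 29.6% of the probes of these arrays, was taken as no ratio. Over the probes measured on all arrays, the median of an array lay between -0.019 and 0.0045.

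The matrix and adhesion genes were split between both RNAs, and many differed widely. The highest in liver were Adamdec1, a metalloproteinase of the ADAM family, and Col18a1, the chain of the basement membrane collagen from which endostatin is cut. The lowest were Lgals3, the sugar-binding protein galectin-3, and Lamb1, a chain of laminin. At an adjusted p of 0.05 in the limma fit over all genes, 21 of 67 genes were higher in liver, against 30.1% of all genes fitted, and 25 were lower, against 33.9%. The remaining 21 did not pass. The share that passed was thus 68.7% of the matrix and adhesion genes and 64.0% of all genes fitted, so the count of calls lay near the background. Without array 1, 23 genes were higher and 29 lower. The share over all genes in that fit is not given here, so these counts cannot be set against the background. Fitted as single probes, 55 of 81 passed, against 64.9% of all probes. In bulk RNA, fewer cells of a type and less RNA per cell cannot be told apart.

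The sizes of the ratios lay further from the background than the calls. A difference of 2-fold or more, in the same direction on each of the arrays, was found for 26 of the 67 genes (38.8%), against 19.0% of all genes fitted. Of these, 13 were higher, against 9.46%, and 13 lower, against 9.53%. Past a test against a 2-fold difference were 12 genes on the higher side, against 7.72%, and 11 on the lower side, against 7.07%. The median absolute mean was 0.82 for the matrix and adhesion genes and 0.48 for all genes fitted. The signed median was -0.070, beside -0.028 for all genes fitted, and 0.050 without array 1, so the list as a whole had no settled direction. A mean of at least 2 in either direction was reached by 15 genes, 10 of them higher in liver. No set test was run, since the list was chosen with earlier results of these data known.

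**Figure D1:**
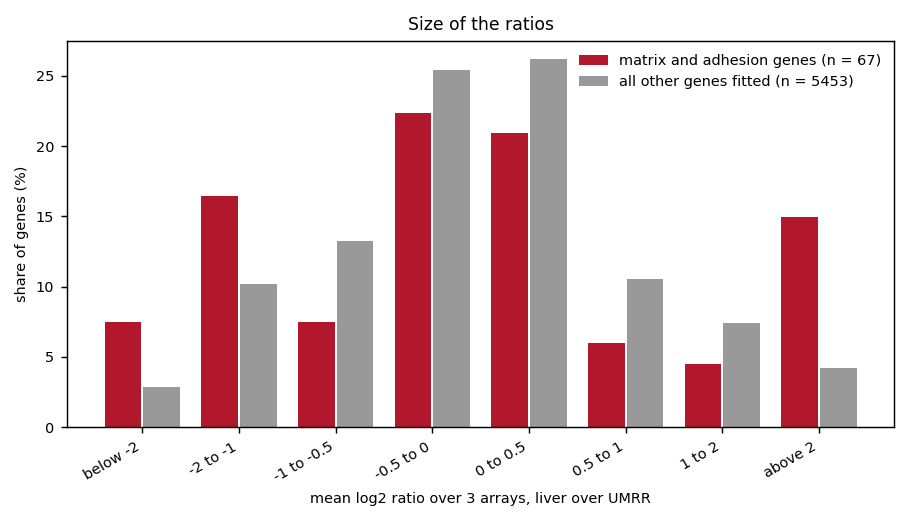
Share of genes, in percent, by their mean log2 ratio of liver over UMRR, for the 67 matrix and adhesion genes (red) and the 5453 other genes fitted (grey). The red bars exceed the grey ones above 2 (14.9% against 4.18%) and below -1 (7.46% against 2.88% below -2, and 16.4% against 10.2% from -2 to -1), and are shorter from -1 to 2.

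Collagens form the fibres and networks of the matrix. Of 8 measured collagen genes, 3 were higher in liver, 2 were lower and 3 did not pass, against 30.1% higher and 33.9% lower among all genes fitted, so the counts lay near the background. The median of the group was 0.030, and it lay between -0.016 and 0.095 when 1 array was left out. Col18a1 (probe 9105) stood at 2.83, 3.12 and 3.07 on arrays 1, 2 and 3, a mean of 3.01 ± 0.16 (SD, n = 3 arrays) or 8.04-fold. The values lay close together, and the adjusted p in the limma fit was 4.76e-06. Col14a1, a collagen that associates with fibrils, stood at 1.92, 2.57 and 2.35, with a mean of 2.28 ± 0.33. Col27a1, a fibrillar collagen, stood at 1.81, 2.14 and 1.82. All 3 were higher on each array by more than 2-fold. For Col14a1 this held for the mean of its 2 probes, while its probe 11244 alone stood at 0.25, 1.20 and 0.88.

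Type III collagen, which fills the stroma of many organs and of cultured fibroblasts, went the other way. Col3a1 stood at -1.71, -1.65 and -1.73, a mean of -1.70 ± 0.043 (SD, n = 3) or 3.24-fold lower in liver, with an adjusted p of 1.95e-05 in the limma fit. These values average 2 probes, with means of -0.96 ± 0.13 and -2.43 ± 0.21, so the SD of 0.043 is smaller than that of either probe. Col24a1, a fibrillar collagen, was weakly lower at -0.083, -0.51 and -0.42. Its call (adjusted p = 0.0422 in the limma fit) was lost when array 2 (adjusted p = 0.226) or array 3 (adjusted p = 0.225) was left out. It was also lost when genes with ratios on 2 arrays were let in (adjusted p = 0.0512), though its own values did not change. The genes that did not pass were Col25a1 at 0.31 ± 0.45, Col20a1 at -0.25 ± 0.11 and Col9a1 at -0.28 ± 0.33. Each of them passed without array 1, with adjusted p-values of 0.0129 for Col25a1, 0.00997 for Col20a1 and 0.0340 for Col9a1 in the limma fit.

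Of the markers of stellate cells and fibroblasts, 1 of 5 measured genes was higher in liver (Reln, 3.02 ± 0.43), 3 were lower and 1 did not pass, with medians of -1.30, -1.21 and -1.15 on arrays 1, 2 and 3. Vim, the intermediate filament of mesenchymal and most cultured cells, stood at -1.92 ± 0.14, and Acta2, the actin of smooth muscle and activated stellate cells, at -1.22 ± 0.076; Col3a1 itself is the third lower marker. Lrat and Des, which define stellate cells, had no ratio on all 3 arrays. The part of these cells in the collagen ratios was not tested.

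The annotation gives Col18a1 start sites in separate places, and its promoters are shown because this gene was the highest of the structural matrix genes among the 67. Both sequences are from RefSeq on GRCm38.p6, minus strand, 250 bases before to 50 after a start, with capitals for matches to GGGCGG (GC box) or CCAAT on either strand. The upstream start lies in chr10:77166481-77166780 and the downstream start in chr10:77113656-77113955.
Col18a1 upstream: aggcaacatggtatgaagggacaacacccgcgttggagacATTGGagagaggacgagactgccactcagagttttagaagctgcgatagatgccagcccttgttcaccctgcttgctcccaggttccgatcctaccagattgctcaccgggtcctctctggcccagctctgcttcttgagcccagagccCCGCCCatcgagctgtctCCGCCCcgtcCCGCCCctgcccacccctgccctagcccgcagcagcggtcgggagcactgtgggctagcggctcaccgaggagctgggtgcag
Col18a1 downstream: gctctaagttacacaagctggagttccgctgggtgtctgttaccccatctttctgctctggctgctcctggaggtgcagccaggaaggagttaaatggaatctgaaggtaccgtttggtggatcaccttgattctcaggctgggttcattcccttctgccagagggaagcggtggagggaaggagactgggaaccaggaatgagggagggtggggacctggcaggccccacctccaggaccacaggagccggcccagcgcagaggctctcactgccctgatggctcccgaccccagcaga
The upstream sequence holds 3 matches to GGGCGG and 1 to CCAAT, and none was found in the downstream one. Of 32851 promoter sequences of the same length, 35.7% hold GGGCGG and 37.4% hold CCAAT. The probe does not show which start was used.

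Laminins and nidogen, the main non-collagen parts of basement membranes, were lower in liver for 3 of 4 measured genes, against 33.9% of all genes fitted, and no gene of this group was higher. The median was -1.62, and it was -1.28 with ratios on at least 2 arrays and -0.21 with zeros kept as ratios of 1. Laminin is a trimer of an alpha, a beta and a gamma chain. The beta chain Lamb1 (probe 14336) stood at -3.09, -3.03 and -2.76 on arrays 1, 2 and 3, a mean of -2.96 ± 0.18 (SD, n = 3) or 7.79-fold lower in liver. It ranked 33 from the lowest among the 5520 genes fitted. The gamma chain Lamc1 stood at -2.22, -1.78 and -1.90, a mean of -1.97 ± 0.23, and was lower by over 2-fold on each array. The adjusted p-values in the limma fit were 5.43e-06 for Lamb1 and 2.90e-05 for Lamc1.

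Nid2, a nidogen that links laminin to collagen networks, stood at -0.78, -1.40 and -1.64, so array 1 gave the smallest difference. Its mean was -1.28 ± 0.44 (SD, n = 3), with an adjusted p of 0.000911 in the limma fit. The alpha chain Lama2, known from muscle and nerve, stood at -0.14, -0.27 and -0.22 and did not pass (adjusted p = 0.0884 in the limma fit), but passed without array 1 (adjusted p = 0.0264). Other probes of Lamb1 and Lamc1 were at exact 0 on all arrays; with zeros kept as ratios of 1, Lamb1 stood at -0.99 and still passed. Lama1 had ratios on 2 arrays, -0.043 and 0.056, and Lamb3 on 1 array, 0.64.

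The Lamb1 promoter is shown because Lamb1 was the lowest of the structural matrix genes among the 67. It lies on GRCm38.p6 at chr12:31265043-31265342, plus strand, and capitals mark GGGCGG and CCAAT on either strand.
Lamb1: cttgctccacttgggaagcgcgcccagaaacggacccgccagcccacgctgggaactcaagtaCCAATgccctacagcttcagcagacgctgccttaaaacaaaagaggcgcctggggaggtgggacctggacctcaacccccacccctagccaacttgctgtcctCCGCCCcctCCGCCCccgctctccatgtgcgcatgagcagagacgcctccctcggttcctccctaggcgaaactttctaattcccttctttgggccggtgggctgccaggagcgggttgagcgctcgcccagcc
It holds 2 matches to GGGCGG and 1 to CCAAT, and no TATAAA, which 13.6% of all promoter sequences hold.

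Matrix glycoproteins were lower for 2 of 3 measured genes, against 33.9% of all genes fitted. Their median was -1.06, and -0.15 with zeros kept as ratios of 1. Thbs2, a thrombospondin that binds matrix and restrains vessel growth (probe 6529), stood at -3.06, -2.86 and -2.87, a mean of -2.93 ± 0.12 (SD, n = 3) or 7.62-fold lower in liver. Fbln7, a fibulin, stood at -0.97, -1.36 and -0.84, a call lost without moderation of the variance (adjusted p = 0.0531 in limma). Both were lower in liver on each array, while Fbln2, a fibulin of elastic tissue, stood at -0.15 ± 0.14 and did not pass (adjusted p = 0.235 in the limma fit). No probe had Fn1, Tnc, Spp1, a fibrillin, Dcn, Bgn or Jup as its single gene symbol, so these genes were not analysed here.

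Proteoglycans carry sugar chains on a core protein, and both that were measured were higher in liver, against 30.1% of all genes fitted. Their median was 2.16, and 1.04 over 4 genes with zeros kept as ratios of 1. Sdc2, a heparan sulfate proteoglycan of the cell surface, stood at 2.06, 2.37 and 2.30, a mean of 2.25 ± 0.16 (SD, n = 3) or 4.74-fold. Lum, a small proteoglycan that binds collagen fibrils, stood at 2.24, 2.02 and 1.97. Both were over 2-fold higher on each array. Loxl4, of the lysyl oxidase family that crosslinks collagen, stood at 0.034 ± 0.22 with values on both sides of 0 and did not pass.

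Genes of the Mmp, Adam and Timp families were grouped by name, whether or not their products act on matrix. Of 8 measured genes, 5 were lower, 1 was higher and 2 did not pass, against 30.1% higher and 33.9% lower among all genes fitted. The median of the group was -1.13, and -0.045 over 22 genes with zeros kept as ratios of 1. The exception was Adamdec1 (probe 14906), at 3.08, 3.27 and 3.29 on arrays 1, 2 and 3, a mean of 3.21 ± 0.12 (SD, n = 3) or 9.28-fold higher in liver. It had the highest ratio of the 67 genes and ranked 90 among all genes fitted. Adamdec1 is known from macrophages and dendritic cells. Of the Kupffer cell markers, the single measured gene, the iron exporter Slc40a1, stood at 3.998 ± 0.12, and C1qa had no ratio on all arrays; the part of Kupffer cells was not tested.

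Mmp2, a gelatinase made by mesenchymal cells, stood at -1.31, -2.59 and -1.999, a mean of -1.97 ± 0.64 (SD, n = 3) or 3.90-fold lower in liver. Its arrays spread widely but all lay below -1. Timp3, the metalloproteinase inhibitor that stays bound to matrix, stood at -1.21, -1.65 and -1.82. Adam10, which sheds Notch and cadherins from the cell surface, stood at -1.43, -1.45 and -1.40, the closest set of values among the lower genes. Adam5 and Mmp23 were lower too, at -1.20 ± 0.093 and -1.06 ± 0.13. Adam21 (-0.070 ± 0.49) and Adam25 (-0.025 ± 0.25), which are known from testis, had values on both sides of 0.

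Stromelysin and collagenase genes were measured on only some arrays. Mmp13, a collagenase, stood at -1.91 on array 1 and -2.47 on array 3. Mmp10, a stromelysin, stood at -1.59 on array 2 and -1.96 on array 3. Mmp11 stood at -1.31 on array 2 alone. Each measured value of these 3 genes was below -1, and the remaining arrays listed an exact 0. They entered no main test.

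Mmp13 and Mmp10 lie near each other on chromosome 9, and their promoters are shown because both genes were low wherever a ratio was listed. The sequences are on GRCm38.p6, plus strand, at chr9:7272264-7272563 for Mmp13 and chr9:7502092-7502391 for Mmp10, with capitals for TATAAA and for TGACTCA, the letters bound by the factor AP-1, on either strand.
Mmp13: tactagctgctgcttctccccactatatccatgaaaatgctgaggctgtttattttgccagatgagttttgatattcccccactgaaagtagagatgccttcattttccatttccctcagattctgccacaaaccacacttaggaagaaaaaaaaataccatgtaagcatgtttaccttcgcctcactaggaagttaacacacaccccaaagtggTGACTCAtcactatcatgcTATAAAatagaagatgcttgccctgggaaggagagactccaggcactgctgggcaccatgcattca
Mmp10: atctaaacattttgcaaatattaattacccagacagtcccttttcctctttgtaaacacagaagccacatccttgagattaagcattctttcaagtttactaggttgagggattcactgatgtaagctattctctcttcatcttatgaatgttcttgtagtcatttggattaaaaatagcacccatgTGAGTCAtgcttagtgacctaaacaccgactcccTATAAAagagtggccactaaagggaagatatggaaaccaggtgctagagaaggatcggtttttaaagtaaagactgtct
Each holds 1 match to TGACTCA, which 5.20% of all promoter sequences hold, and 1 to TATAAA. In Mmp13 the match to TGACTCA begins 35 bases before the start site and that to TATAAA 16 bases before it. In Mmp10 they begin 63 and 29 bases before it, the match to TGACTCA being on the opposite strand. Neither sequence holds GGGCGG or CCAAT. A match in letters does not show binding.

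Galectins, which bind sugars on matrix and cell surfaces, were lower for 2 of 3 measured genes, against 33.9% of all genes fitted. Lgals3 (probe 11718) stood at -2.82, -3.28 and -2.96, a mean of -3.02 ± 0.23 (SD, n = 3) or 8.09-fold lower in liver, with an adjusted p of 6.73e-06 in the limma fit. It was the lowest of the 67 genes, and ranked 29 from the lowest among all genes fitted. Lgals2, an intestinal galectin, was slightly lower at -0.33 ± 0.11 (adjusted p = 0.0237 in the limma fit). That call was lost when array 2 (adjusted p = 0.0670) or array 3 (adjusted p = 0.154) was left out, and with the median in place of the mean of its probes (-0.19, adjusted p = 0.119). Lgals7, known from skin, stood at 0.23 ± 0.26 and did not pass.

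**Figure D2:**
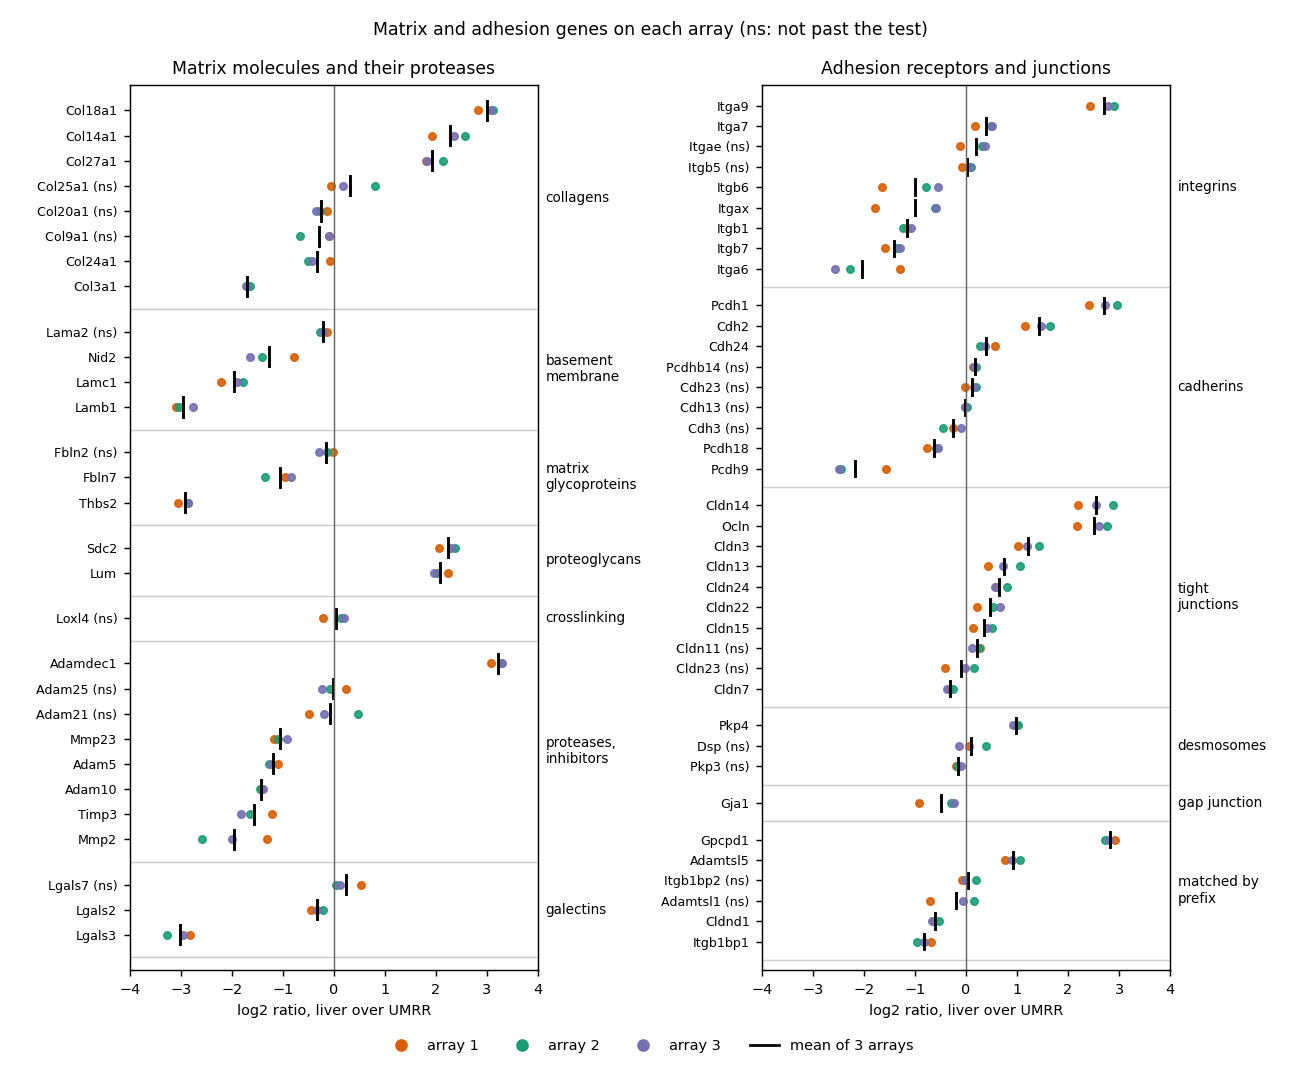
Log2 ratio of liver over UMRR for each of the 67 genes on each array (coloured points), with the mean of the 3 arrays (black bar), grouped by role. The proteoglycans lie right of 0 on every array and the basement membrane genes left of it, while the collagens, proteases and integrins hold genes on both sides; names marked ns did not pass the limma test.

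Integrins are pairs of an alpha and a beta chain that bind matrix or other cells. Of 9 measured integrin genes, 2 were higher in liver, 5 were lower and 2 did not pass, against 30.1% higher and 33.9% lower among all genes fitted. The group's median was -0.996, and it was -0.597 without array 1 and 0 with zeros kept as ratios of 1. Itga9, an alpha chain that binds tenascin and other ligands (probe 12139), stood at 2.43, 2.90 and 2.79 on arrays 1, 2 and 3, a mean of 2.71 ± 0.25 (SD, n = 3) or 6.53-fold. Its beta partner Itgb1, which pairs with many alpha chains, stood at -1.16, -1.24 and -1.08 and was lower in liver on each array. With zeros kept as ratios of 1, which brings in the other probe of Itgb1, it stood at -0.58 and still passed.

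Itga6, an alpha chain of laminin receptors, stood at -1.31, -2.27 and -2.57, a mean of -2.05 ± 0.66 (SD, n = 3) or 4.13-fold lower in liver. It was lower on each array, least so on array 1, and 2 further probes of it were at exact 0. With zeros kept as ratios of 1 for all genes, its mean was -0.68 and its call was lost (adjusted p = 0.05003 in the limma fit). The further probes shrank its mean and SD alike, and the setting changed the fit of all genes. What ended the call was not tested. Itgb6, a beta chain of epithelia that activates TGF-beta, stood at -1.64, -0.79 and -0.56. Itga7, a laminin receptor chain of muscle, was weakly higher at 0.39 ± 0.18, a call lost when array 2 (adjusted p = 0.109) or array 3 (adjusted p = 0.160) was left out, and with zeros kept (0.20, adjusted p = 0.0919). Itgb5, a chain of vitronectin receptors, stood at 0.023 ± 0.089 and did not pass.

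Some chains are known from white blood cells. Itgb7, which guides lymphocytes to the gut, stood at -1.59, -1.36 and -1.30, and was lower in liver by over 2-fold on each array. Itgax, the alpha chain of dendritic cells known as CD11c, stood at -1.80, -0.61 and -0.59, so array 1 set much of its mean of -0.996 ± 0.69 (SD, n = 3). Without array 1 it stood at -0.597 and passed. Itgae, of lymphocytes within epithelia, stood at -0.11, 0.31 and 0.38 and did not pass, but passed without array 1 (0.34, adjusted p = 0.00602 in the limma fit). Of 3 measured lymphocyte markers, Pou2af1 (-2.69 ± 0.16) and Cd3g (-1.51 ± 0.033) were lower in liver and Ighm (1.65 ± 0.41) higher, with medians of -1.49, -1.54 and -1.48 on arrays 1, 2 and 3; the part of lymphocytes in these ratios was not tested.

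Cadherins and protocadherins hold cells together by calcium-dependent contacts. Of 9 measured genes, 3 were higher in liver, 2 lower and 4 did not pass, against 30.1% higher and 33.9% lower among all genes fitted, so the counts lay near the background. The group's median was 0.11, and it was 0.17 without array 1 and 0.064 without array 2. Pcdh1, a protocadherin of epithelia (probe 13302), stood at 2.40, 2.96 and 2.73, a mean of 2.70 ± 0.28 (SD, n = 3) or 6.48-fold. Cdh2, N-cadherin, which hepatocytes carry beside E-cadherin, stood at 1.16, 1.64 and 1.47, and both genes were higher by over 2-fold on each array. Cdh24 was weakly higher at 0.40 ± 0.15, a call lost without array 3 (adjusted p = 0.0871 in the limma fit).

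Pcdh9, a protocadherin known from brain, stood at -1.56, -2.46 and -2.49, a mean of -2.17 ± 0.53 (SD, n = 3) or 4.498-fold lower in liver, a call lost without moderation of the variance (adjusted p = 0.0502 in limma). Pcdh18 stood at -0.77, -0.58 and -0.54, and was lower on each array by under 2-fold. Cdh3, P-cadherin of basal epithelia, stood at -0.26 ± 0.18 and did not pass, but passed without array 1 (-0.27, adjusted p = 0.0459 in the limma fit). Cdh13, which is anchored to the membrane by a lipid, stood at -0.015 ± 0.022, Cdh23, of the inner ear, at 0.11 ± 0.12 and Pcdhb14 at 0.17 ± 0.035. None of these passed.

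Tight junction genes were mostly higher in liver, with 7 of 10 measured genes higher, 1 lower and 2 short of the threshold, against 30.1% higher and 33.9% lower among all genes fitted. Without moderation of the variance, the calls of Cldn13 (adjusted p = 0.0973), Cldn15 (adjusted p = 0.135) and Cldn22 (adjusted p = 0.117) ended. The group's median was 0.56, and 0.22 with zeros kept as ratios of 1. Occludin, Ocln (probe 1661), stood at 2.17, 2.77 and 2.61 on arrays 1, 2 and 3, a mean of 2.51 ± 0.31 (SD, n = 3) or 5.71-fold. Cldn14, a claudin known from the inner ear, kidney and liver (probe 9469), stood at 2.20, 2.88 and 2.54. Both lay above 2 on each array, with adjusted p-values of 2.04e-05 for Ocln and 2.44e-05 for Cldn14 in the limma fit. Cldn3, a claudin of liver and other barrier epithelia, stood at 1.01, 1.44 and 1.20, but with zeros kept as ratios of 1 its mean was 0.54 and its call was lost (adjusted p = 0.121).

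The other claudins measured on all arrays differed by less than 2-fold in their means. Cldn13 stood at 0.74 ± 0.31 and Cldn24 at 0.65 ± 0.14, both higher in liver. Cldn22 (0.47 ± 0.23) lost its call when array 2 (adjusted p = 0.0594 in the limma fit) or array 3 (adjusted p = 0.120) was left out. So did Cldn15, an intestinal claudin (0.35 ± 0.19), when array 2 (adjusted p = 0.185) or array 3 (adjusted p = 0.181) was left out. Cldn7, which marks bile duct and many cultured epithelia, stood at -0.34, -0.25 and -0.37 and was lower, a call lost when array 2 (adjusted p = 0.0828) or array 3 (adjusted p = 0.192) was left out. With its other probe at exact 0 kept, Cldn7 stood at -0.16. Cldn11 (0.22 ± 0.085) and Cldn23 (-0.096 ± 0.30) did not pass. Cldn34c1, with no ratio on array 1, stood at -1.69 and -0.99 on arrays 2 and 3.

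Markers of other epithelia were read beside this group. Of 10 measured markers of pancreatic acinar cells, 9 were higher in the liver channel and 1, Cel, did not pass (0.22 ± 0.079), with medians of 4.08, 4.61 and 4.49 on arrays 1, 2 and 3; Reg2 stood at 5.55 ± 0.14 and Try4 at 5.38 ± 0.26. Of the bile duct markers, both measured genes were lower, Sox9 at -1.28 ± 0.39 and Cldn7, with medians of -0.59, -0.91 and -0.90. The part of pancreatic or duct RNA in the junction ratios was not tested.

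Desmosomes, the spot junctions anchored to keratin, were measured by 3 genes. Pkp4, a plakophilin-related protein of junctions, stood at 0.98, 1.01 and 0.93, a mean of 0.97 ± 0.045 (SD, n = 3), and was higher in liver with little spread (adjusted p = 0.000183 in the limma fit). Dsp, desmoplakin, stood at 0.10 ± 0.27 and Pkp3 at -0.16 ± 0.045, and neither passed. Of the gap junction genes, Gja1, the connexin of most cultured and mesenchymal cells, stood at -0.92, -0.29 and -0.24, a mean of -0.48 ± 0.38, and was lower in liver. Without array 1 it stood at -0.26 and passed. Gjb1, the main connexin of hepatocytes, was listed at an exact 0 on every array.

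A few genes match the names but belong to other functions or lack the family's activity. Gpcpd1, a phosphodiesterase of glycerophosphocholine that only shares letters with the glypicans (probe 11982), stood at 2.91, 2.73 and 2.80, a mean of 2.81 ± 0.092 (SD, n = 3) or 7.03-fold higher in liver. Itgb1bp1, a protein that binds the tail of Itgb1, was lower at -0.82 ± 0.14, and Cldnd1, a claudin-domain protein, at -0.62 ± 0.067. Adamtsl5, a matrix protein related to ADAMTS proteases without protease activity, was higher at 0.91 ± 0.15, while Adamtsl1 (-0.20 ± 0.45) and Itgb1bp2 (0.036 ± 0.15) did not pass. Leaving out the genes whose products are no matrix or adhesion proteins left 63 genes, 20 higher in liver and 23 lower. Among all genes fitted, 30.1% were higher and 33.9% lower, so these counts lay near the background.

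Genes with several probes showed how far a single ratio depends on the probe. Of the 67 genes, 9 had 2 or more measured probes, and the median gap between the highest and lowest probe mean was 0.80, against 0.34 over 1328 such genes in all. The gap exceeded 1 for 4 of the 9 and for 15.9% of the 1328. Col14a1 had 3.598, 3.95 and 3.81 on probe 2567 but 0.25, 1.20 and 0.88 on probe 11244. Both probes were above 0 on each array, so the direction held while the size did not.

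Col3a1 had -2.41, -2.24 and -2.65 on probe 18528 but -1.01, -1.06 and -0.81 on probe 16982. Adamtsl5 had a mean of 1.71 on probe 14859, 0.82 on probe 7034 and 0.21 on probe 8682. Cldn11 was the 1 case with opposite signs, as probe 13087 had 1.05, 0.79 and 0.34 and probe 17704 had -0.49, -0.27 and -0.09, so its mean near 0 is no measure of either. For 12 of the 67 genes, Lamb1, Itga6, Cldn3 and, of the genes just named, Col3a1 among them, at least 1 probe was left out because it listed an exact 0 on 1 or more arrays. Keeping such zeros for all genes ended 14 calls. Beside the calls of Cldn3, Itga6 and Itga7, this was so for Cdh24, Cldn13, Cldn15, Cldn22, Col24a1, Gja1, Itgax, Itgb6, Lgals2, Mmp2 and Nid2, whose own values did not change (the cause was not tested), with adjusted p-values of 0.0505 to 0.218 in the limma fit. The fit with zeros kept also held genes at exact 0 on every array, which have no spread between arrays. For Itga6 and Itga7 the added probes were at 0 throughout and shrank mean and SD alike. Without moderation of the variance 15 calls ended, those of the 11 genes whose own values did not change and of Itga6, Itga7, Fbln7 and Pcdh9. The calls ended by these settings thus largely overlap.

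**Figure D3:**
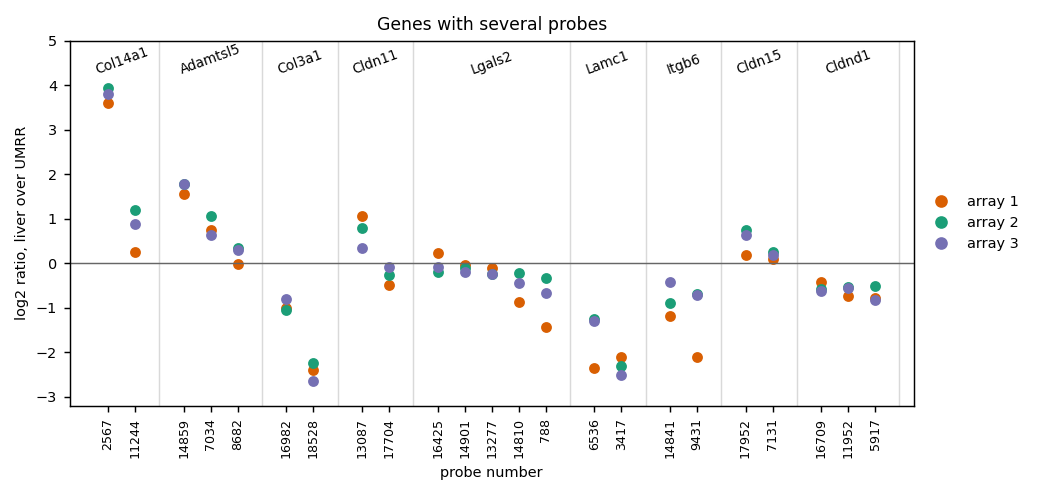
Log2 ratio of liver over UMRR on each array (coloured points) for every probe of the 9 genes with several measured probes, ordered by the gap between probes. The probes of Col14a1 lie 3.01 apart and those of Col3a1 1.47 apart, and the probes of Cldn11 lie on both sides of 0.

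Array 1 stood apart among these genes as it did over the whole array. The SD of the difference between arrays was 0.46 for arrays 1 and 2, 0.41 for arrays 1 and 3 and 0.23 for arrays 2 and 3, beside 0.43, 0.38 and 0.21 over all genes fitted. Per gene, the SD over the arrays had a median of 0.18 for the matrix and adhesion genes and 0.17 for all genes fitted. The widest departures were those of Itgax, 1.20 lower on array 1 than the mean of arrays 2 and 3, and of Itga6, 1.11 higher. Of the 67 genes, 55 had 1 sign on all arrays (82.1%, against 79.5% of all genes fitted).

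**Figure D4:**
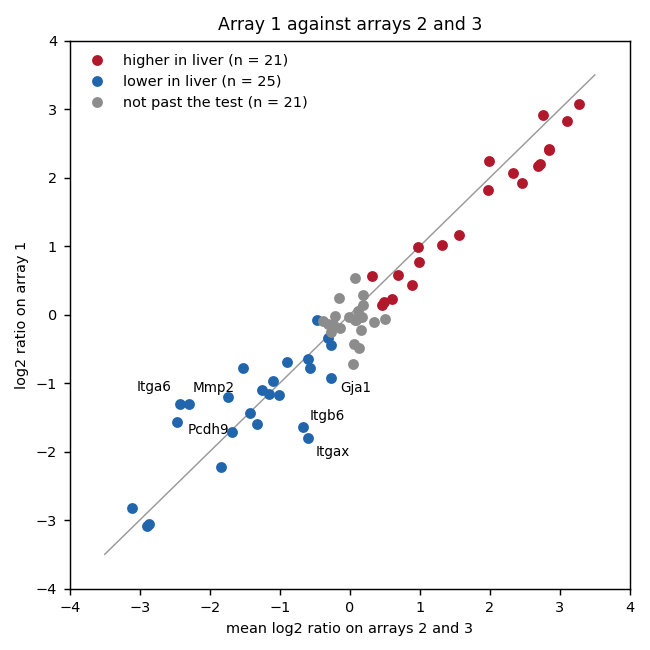
Log2 ratio of each of the 67 genes on array 1 against its mean on arrays 2 and 3, coloured by its call, with a line of equal values. Most of the 21 higher genes (red) lie under the line, and Itgax and Itgb6 lie below it while Itga6, Mmp2 and Pcdh9 lie above it among the 25 lower genes (blue).

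Other genes of the pathway were taken from lists outside these families. Among genes that process collagen in the cell, 2 of 4 measured were lower in liver and none was higher, with a median of -0.31. Among all genes fitted, 33.9% were lower and 30.1% higher. Serpinh1, the collagen chaperone, stood at -1.68, -1.75 and -2.27, and Plod3, a lysyl hydroxylase, at -0.50 ± 0.12. Plod1 (-0.11 ± 0.16) and Colgalt1 (0.11 ± 0.41) did not pass. Of the adaptors that couple integrins to actin, 4 of 5 were lower, against 33.9% of all genes fitted, and none was higher, with a median of -0.52. Actn1, an actinin, stood at -1.57, -2.28 and -2.13 and Lims1, a partner of integrin-linked kinase, at -1.27, -1.96 and -1.84.

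Of 6 other matrix proteins, 2 were higher and 3 lower, against 30.1% higher and 33.9% lower among all genes fitted. Ogn, a small proteoglycan, stood at -2.43, -2.34 and -2.26, whereas Prelp, another of that family, stood at 2.30, 2.20 and 2.21. Vtn, a plasma protein of hepatocytes, was among the markers that set the direction. Of 12 other junction and adhesion genes, 5 were higher, 3 lower and 4 did not pass, beside the same shares of 30.1% and 33.9%. The list's median was 0.21. Dsc2, a desmosomal cadherin, stood at 4.798, 5.34 and 4.69, a mean of 4.94 ± 0.35 (SD, n = 3) or 30.8-fold, which is above every one of the 67 genes. Esam, an adhesion molecule of endothelium, stood at 2.07, 2.84 and 2.95, and Ncam1, of nerve and muscle, at -1.37, -2.41 and -2.49.

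Of the endothelial markers, Eng stood at 1.63 ± 0.35 and was higher, and Ramp2 stood at 0.16 ± 0.14 and did not pass, with medians of 0.75, 0.95 and 1.00 on arrays 1, 2 and 3. Of the erythroid markers, 3 of 5 were higher, with medians of 2.31, 3.46 and 3.49; Hba-a1 stood at 4.94 ± 0.34 and Hba-a2 at 4.72 ± 0.35, and the probes of these near-identical genes cannot be told apart. Their part in the ratios above was not tested.

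The other genes of the 107 had no ratio on all 3 arrays: 8 were measured on 2 arrays, 7 on 1 array, and 25 were listed at an exact 0 on every array. Among the last were the matrix genes Sparc, Thbs3, Col5a2, Col8a1, Col16a1, Col23a1, Lamb2, Gpc4 and Gpc6, the integrins Itga8, Itgb4 and Itgb2l, and the galectin Lgals8. The Mmp and Adam family genes Mmp7, Mmp9, Adam1b, Adam2, Adam26a, Adam26b and Adamts5, the inhibitor Timp4 and the junction genes Cldn2, Cldn6, Tjp3 and Gjb1 were at 0 as well. An exact 0 gives no level for either RNA, so nothing was read from it. Of the genes on 2 arrays, Sdccag8, a centrosomal protein that matches only by its letters, stood at -0.42 and -0.84, and the values of Cldnd2, Cldn34b2 and Loxhd1 lay between -0.56 and 0.087. On 1 array, the values of Adam15, Adam30, Adam39, Col19a1 and Itgav lay between -0.54 and 0.30.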

How the data were processed

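Liver total RNA and UMRR, both purchased, were amplified in 1 round and hybridised with liver in Cy5 and UMRR in Cy3, per the labels. The authors deposited 1 signed value for each probe on each array, taken as a log2 ratio. For the scanner, background correction, dye normalization, filters, log base and genome build, the methods were not given in the sources used here. Scanner intensities were not used, so dim probes could not be filtered. All 3 arrays formed 1 group.

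Probes were named from the platform annotation, and all 107 genes matched the reference gene table by gene identifier with 0 symbols changed. Exact zeros were read as no ratio, probes measured on all 3 arrays were averaged per symbol, and an intercept was fitted over 5520 genes in limma 3.58.1 (lmFit, then eBayes; R 4.3.3). Each test was two-sided against 0 with Benjamini-Hochberg adjustment over all genes and a threshold of 0.05. The fit was checked on simulated data in which few genes changed and the noise of each array was independent. That check does not cover dye bias, an array that stands apart or data in which most genes are called, as here (64.0%). The number of arrays limits the precision. Members, lists, roles and tests were chosen with earlier results of these data known.

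Within each role every measured gene was to be named where there were at most 6, otherwise the 3 highest and 3 lowest. The remaining measured genes are named too, after their values were seen. Of each pathway list, the 2 called genes with the largest absolute means and the called gene furthest against the list's median were named, and of each marker list the 2 with the largest. Plod1, Colgalt1, Prelp, Rbp4, Ambp, Cd3g, Acta2 and Cel were named outside that rule. Promoters are from RefSeq (GRCm38.p6), and those shown were chosen after the values were seen.

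Alternatives tried were arrays centred, arrays centred and scaled, each array left out, ratios on at least 2 arrays, exact zeros kept, the median probe, single probes, eBayes with trend and robust set, no moderation of the variance, a threshold of 0.01, a test against a 2-fold difference, natural logs and a narrower membership.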

Additional observations from a re-analysis of the deposited data

How the results depend on the processing

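The count of 46 genes past the test lay between 39 (without array 3) and 52 (without array 1), and was 46 with the arrays centred, centred and scaled, or with eBayes set to trend and robust. It was 49 of 75 genes with ratios on at least 2 arrays, 35 of 107 with exact zeros kept, 45 with the median probe, 55 of 81 single probes, 32 without moderation of the variance and 37 at a threshold of 0.01. Against a 2-fold difference 23 passed, 12 higher and 11 lower, against 14.8% of all genes fitted. The share over all genes was 64.0% as reported, and 64.9% over all single probes. For the other alternatives that share is not given here, so their counts cannot be set against the background. Without moderation 15 were lower, against 25 as reported. The higher count lay between 17 and 23 and the lower count between 22 and 29 when 1 array was left out. Genes with a 2-fold or larger difference on each array, 26 of 67 as reported, numbered 26 or 27 when 1 array was left out. There were 22 of 107 with zeros kept, 28 of 75 with ratios on at least 2 arrays and 28 of 81 single probes. Read as natural logs, 31 of 67 reached that size. The share over all genes was 19.0% as reported and is not given for these alternatives. The median of -0.070 was 0.050 without array 1, between -0.092 and 0.050 when 1 array was left out, and -0.15 with ratios on at least 2 arrays; the cause was not tested. No called gene changed sign under any alternative run. Of the 46 called genes, 20 passed under each alternative run, and 29 did when the test against a 2-fold difference was left aside. With exact zeros kept 14 calls were lost, and without moderation 15 were, with adjusted p-values of 0.0502 to 0.220. The genes that lost their calls under these settings were largely the same. Genes near the threshold are limited by 3 arrays. Each ratio already sets liver against UMRR on the same array, and no further pairing was possible because there is 1 group of arrays.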
